A study of Mus musculus with 16 samples.

Results

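FREM3 belongs to a small family of very large extracellular matrix proteins, FRAS1, FREM1, FREM2 and FREM3, built from chondroitin sulphate proteoglycan (CSPG) repeats and Calx-beta domains. In embryonic skin and kidney, FRAS1, FREM1 and FREM2 stabilise one another in a complex in the basement membrane, the sheet of matrix under epithelia, and loss of a member loosens the epithelium from the tissue below it, as in Fraser syndrome. GRIP1 and GRIP2 are intracellular scaffolds with several PDZ domains, named for their binding to AMPA-type glutamate receptors at synapses. GRIP1 also binds the cytoplasmic tail of FRAS1 and is needed to deliver it to the cell surface. Less is known of FREM3 in the brain, where its human gene serves as a marker of a class of upper-layer cortical neurons.

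The genes described here are the 4 matrix genes Frem3, Fras1, Frem1 and Frem2 and the 2 scaffold genes Grip1 and Grip2, taken by name from the 55385 gene identifiers of the count files. Frem3 was picked because it differed between virus groups 5 days after conditioning, so its values in the 5 day libraries are given as a description without a test, and the other 5 genes were picked for their relation to it. All 6 had enough counts to be tested, among 16899 genes that did.

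Bulk RNA of the mouse dorsal hippocampus, a region needed to form memories of places, was sequenced in 16 libraries. In the Dnmt3a2 groups a recombinant adeno-associated virus (rAAV) delivered an exogenous copy of Dnmt3a2, the short isoform of a de novo DNA methyltransferase, and in the Control groups it delivered GFP. All mice, Control included, went through contextual fear conditioning 3 weeks after injection, and tissue was collected after 1 day or 5 days. There were 4 libraries in each of the groups Dnmt3a2 at 1 day, Dnmt3a2 at 5 days, Control at 1 day and Control at 5 days. The labels give neither the strain, sex or age of the mice nor the promoter or cell type that drives the transgene, and no group without conditioning or without virus was analysed here. Whether a library stands for 1 animal is likewise not stated, so p-values measure the spread between these samples, which may be technical.

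Library totals were 28.6 to 30 M estimated counts, and levels are given in CPM, counts per M of the library's counts with TMM scaling (a factor per library that sets most genes level). Dnmt3a, the gene from which the transgene was made, had 623 to 1150 CPM in Dnmt3a2 and 33.6 to 35.4 CPM in Control libraries at 1 day, and 1010 to 1250 CPM in Dnmt3a2 and 32.7 to 37.7 CPM in Control libraries at 5 days. Markers of all 3 hippocampal pyramidal and granule cell groups were present in every library, and no marker of the 13 cell type lists was at 0 in all libraries. Replicate 1 of Dnmt3a2 at 1 day and replicate 1 of Dnmt3a2 at 5 days stood apart through choroid plexus transcripts, with 883 and 1410 CPM summed over 10 markers of that tissue. The other 14 libraries had 44.2 to 213 CPM. All 10 choroid plexus markers were on average higher in Dnmt3a2 than in Control libraries at both days, and none was called. In bulk RNA, more cells of a type and more RNA per cell cannot be told apart.

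The start of 3 of the genes is shown first, because the transferred enzyme adds methyl groups to cytosine in CG pairs and genes differ in how many such pairs lie before their start. Methylation was not measured in these libraries, and a CG count describes the letters alone. The sequences are the 250 bases before the RefSeq start on build GRCm38.p6, 5′ to 3′ on the strand of the gene, with each CG in capitals. CG reads the same on both strands and cannot overlap itself. RefSeq starts were found for 5 of the 6 genes, all but Fras1. Frem3 is shown as the gene picked for its difference between virus groups, Frem2 as a family member with as many CG pairs whose groups overlapped, and the first start of Grip1 as the window with the most CG pairs among those found. The windows are chr8:80610789-80611038 on the plus strand for Frem3, chr3:53657356-53657605 on the minus strand for Frem2 and chr10:119453784-119454033 on the plus strand for Grip1.
Frem3: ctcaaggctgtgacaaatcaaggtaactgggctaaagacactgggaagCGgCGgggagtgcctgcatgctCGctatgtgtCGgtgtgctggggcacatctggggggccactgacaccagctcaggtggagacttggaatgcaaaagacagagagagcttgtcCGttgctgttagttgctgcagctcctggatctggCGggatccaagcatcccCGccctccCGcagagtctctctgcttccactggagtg
Frem2: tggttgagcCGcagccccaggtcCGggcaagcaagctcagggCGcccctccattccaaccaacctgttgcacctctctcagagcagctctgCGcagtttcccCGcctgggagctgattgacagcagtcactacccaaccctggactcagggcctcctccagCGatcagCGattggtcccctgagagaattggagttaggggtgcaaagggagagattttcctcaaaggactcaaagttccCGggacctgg
Grip1: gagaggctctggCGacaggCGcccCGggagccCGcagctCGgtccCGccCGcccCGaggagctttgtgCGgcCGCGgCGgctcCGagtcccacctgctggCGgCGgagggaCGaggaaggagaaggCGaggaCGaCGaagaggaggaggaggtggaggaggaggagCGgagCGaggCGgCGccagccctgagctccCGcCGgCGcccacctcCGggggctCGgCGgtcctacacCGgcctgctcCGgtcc
The windows of Frem3 and Frem2 each held 8 CG pairs, and that of Grip1 held 31. Of the 32851 windows of the same length in the RefSeq table, 92.1% held at least 1 CG, with a median of 6 and quartiles of 2 and 16. Among them, 43% held as many as Frem3 or more, and 5.19% as many as Grip1 or more. The start of Grip2 had 12 CG pairs, the 2 starts of Frem1 had 4 and 7, and the 2 further starts of Grip1 had 6 and 1. Several starts lay inside the gene as GENCODE M21 places it: that of Grip2 by 19857 bases and those of Frem1 by 31237 and 173. The first start of Grip1 lay inside by 204 bases, so most of its printed window falls within the annotated gene.

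Frem3 (ENSMUSG00000042353) lies on chromosome 8 at 80611080 to 80695356 of GRCm38, plus strand. GENCODE M21 gives it 1 transcript of 6384 bases, of which 6381 are coding, so the annotation holds almost no untranslated sequence. No other annotated gene overlaps it. In the Dnmt3a2 libraries at 1 day it had 1.79, 1.15, 2.24 and 2.05 CPM (33 to 65 counts), against 0.89, 0.674, 0.721 and 0.867 CPM (20 to 27 counts) in the Control libraries at 1 day. Every Dnmt3a2 library was above every Control library at 1 day, and the closest values were 1.15 CPM in Dnmt3a2 replicate 2 and 0.89 CPM in Control replicate 1. In the Dnmt3a2 libraries at 5 days Frem3 had 1.92, 4.97, 4.30 and 4.61 CPM (58 to 151 counts), against 1.20, 1.33, 1.20 and 0.901 CPM (26 to 40 counts) in the Control libraries at 5 days. The groups again did not overlap, as was so for 6.28% of all genes at 5 days (2.99% with Dnmt3a2 higher), and replicate 1 of the Dnmt3a2 group lay well below its other 3 libraries while still above all Control libraries.

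**Figure D1:**
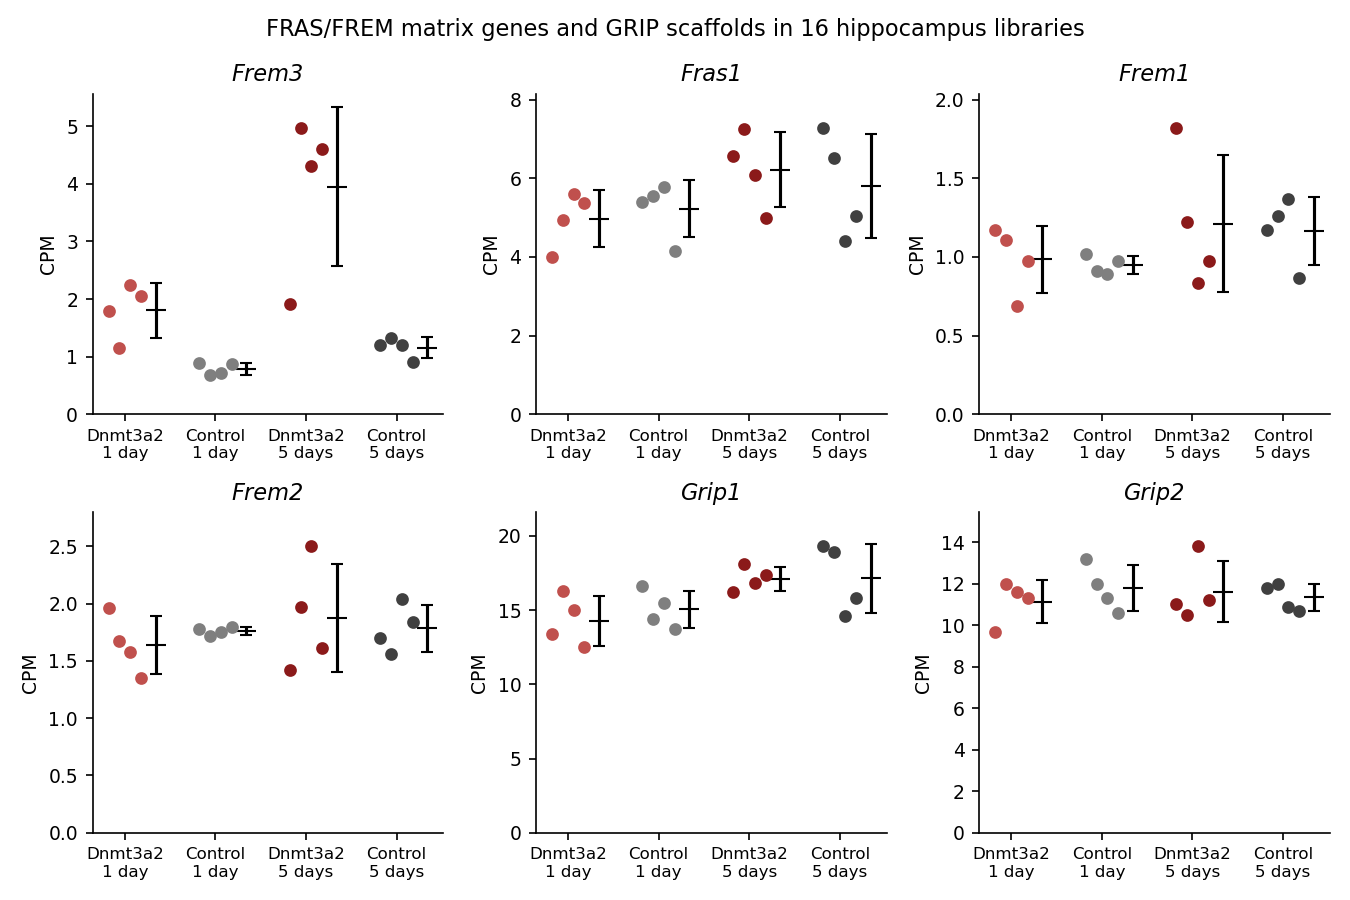
Level of each gene in CPM (vertical axes, starting at 0) in the 16 libraries, with 1 point a library in replicate order and the mean ± SD of the group beside it (n = 4). Frem3 is the gene whose Dnmt3a2 libraries lie above the Control libraries at both days (1.15 to 2.24 against 0.674 to 0.89 CPM at 1 day), while the groups of the other 5 genes overlap.

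At 1 day, Frem3 averaged 1.80 ± 0.477 CPM in Dnmt3a2 and 0.788 ± 0.107 CPM in Control hippocampus (SD, n = 4 each). The difference was 1.19 on the log2 scale (SE 0.28, 95% interval 0.61 to 1.77), a 2.28-fold higher level. It did not pass the test over all genes (edgeR quasi-likelihood test, Benjamini-Hochberg adjusted p = 0.157), although its unadjusted p of 0.000343 ranked 37 of 16899. When the 8 libraries were regrouped in all 70 ways, the exact permutation p of the difference in mean CPM (two-sided) was 0.0286, the smallest this design can give. Any gene without overlap between the groups gets this p, so it adds nothing to that lack of overlap. Groups without overlap occurred for 3.43% of all genes at 1 day in either direction, and for 1.65% with Dnmt3a2 higher. The call depended on the test: of 24 alternatives, 20 left Frem3 uncalled and 4 called it. Among the 20, the adjusted p was 0.338 in an edgeR fit of the 1 day groups alone and 0.164 with limma-trend. With replicate number in the edgeR fit it was 0.175, and the highest was 0.406, in edgeR without Control_1d replicate 2. Among the 4, the adjusted p was 0.0272 with DESeq2 and 0.028 without a filter on low counts. Without Dnmt3a2_5d replicate 1, which enters the shared estimate of spread, it was 0.0245. It was 0.0399 without both choroid-rich libraries, an alternative added after the data were seen, and the log2 difference stayed between 1.07 and 1.36 in all 24 alternatives.

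At 5 days, the contrast that chose it, Frem3 averaged 3.95 ± 1.38 CPM in Dnmt3a2 and 1.16 ± 0.181 CPM in Control hippocampus (SD, n = 4 each), a ratio of means of 3.41 and a log2 difference of 1.77 (SE 0.26). Over 24 alternatives, including each library left out, the log2 difference ran from 1.64 to 1.99. These alternatives rest on the libraries that chose the gene, so the range is a description as well.

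Ordered by mean level in CPM, Frem3 was highest in Dnmt3a2 at 5 days, then in Dnmt3a2 at 1 day, in Control at 5 days and in Control at 1 day. Neighbours in this order met or nearly met through single libraries. In Dnmt3a2 at 5 days 1 library (1.92 CPM) fell within the range of Dnmt3a2 at 1 day. The rest of its group had 4.30 to 4.97 CPM, above the 2.24 CPM of the highest Dnmt3a2 library at 1 day. In Dnmt3a2 at 1 day 1 library (1.15 CPM) fell within the range of Control at 5 days. The Control groups did not overlap (2.43% of all genes, 1.15% with 5 days higher), but the lowest 5 day library (0.901 CPM) and the highest 1 day library (0.89 CPM) were nearly equal. Between days, the log2 difference of Frem3, 5 days over 1 day, was 1.13 (SE 0.25) in Dnmt3a2 and 0.55 (SE 0.28) in Control hippocampus. Both use the 5 day libraries that chose the gene, so no test of either is read here. The same holds for whether the difference between virus groups changed from day to day.

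Replicate 1 of Dnmt3a2 at 5 days, the library with the lowest Frem3 of its group, was also the one richest in choroid plexus transcripts (1410 CPM summed, against 48.3, 52.2 and 55.7 CPM in the other 3). The other choroid-rich library, replicate 1 of Dnmt3a2 at 1 day, held 1.79 CPM of Frem3, between the other libraries of its group. With both left out, the log2 difference of Frem3 between Dnmt3a2 and Control was 1.20 at 1 day and 1.99 at 5 days. Dnmt3a was lowest in replicate 1 of both Dnmt3a2 groups, with 623 CPM at 1 day and 1010 CPM at 5 days. The part of the choroid plexus share or of the transgene level in the Frem3 values was not tested. Summed markers of the neocortex, which borders the dissected region and where human FREM3 marks neurons, ran from 400 to 498 CPM in Dnmt3a2 and 445 to 561 CPM in Control at 1 day, and from 431 to 496 CPM in Dnmt3a2 and 423 to 524 CPM in Control at 5 days. Those ranges overlapped at both days, and none of the 12 neocortex markers was called at either. Of the 12, 3 had an unadjusted p under 0.05 at each day (7.17% of all genes did at 1 day and 8.01% at 5 days). The groups of 2 markers did not overlap at 1 day (3.43% of all genes) and those of 3 did not at 5 days (6.28%). In log2 difference, 6 of the 12 were above 0 at 1 day and 3 at 5 days. Their differences ran from -0.71 to 0.26 at 1 day and from -0.72 to 0.24 at 5 days. The part of the neocortex in the Frem3 values was not tested.

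Of the other 12 marker lists, the summed levels of the groups overlapped at both days except for dentate granule cells at 5 days. There the 10 granule cell markers summed to 778 to 831 CPM in Dnmt3a2 and 835 to 944 CPM in Control libraries, while at 1 day they summed to 760 to 912 CPM in Dnmt3a2 and 748 to 941 CPM in Control libraries. Single markers moved both ways at 5 days: of the 10, 5 were above 0 in log2 difference, 1 was called higher and 1 lower, where 0.32% of all genes were called. An unadjusted p under 0.05 was found for 3 of the 10 at 1 day (7.17% of all genes) and for 6 at 5 days (8.01%). The groups of 2 markers did not overlap at 1 day (3.43% of all genes) and those of 4 did not at 5 days (6.28%). C1ql2, a secreted synaptic organiser, fell to 128 ± 5.58 CPM in Dnmt3a2 at 5 days, against 194 ± 19.2 CPM in Control hippocampus (edgeR adjusted p = 0.00119). Calb1, a calcium buffer, had 136 ± 5.48 CPM in Dnmt3a2 and 106 ± 4.95 CPM in Control (edgeR adjusted p = 0.0258), and it was also higher at 1 day, with 125 ± 5.22 CPM in Dnmt3a2 and 96 ± 12 CPM in Control (edgeR adjusted p = 0.0241), where 0.0888% of all genes were called. Of the 12 markers of CA3 and CA2 neurons 1 was called, Cpne9, a copine, with 40.6 ± 0.943 CPM in Dnmt3a2 and 29.5 ± 3.69 CPM in Control at 5 days (edgeR adjusted p = 0.014). The part of these cell groups in the Frem3 values was not tested.

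Fras1 (ENSMUSG00000034687, chromosome 5, 96373955 to 96784728, plus strand) encodes the transmembrane founder of the family. At 1 day it had 3.99, 4.93, 5.61 and 5.37 CPM in Dnmt3a2 libraries, against 5.40, 5.56, 5.77 and 4.16 CPM in Control libraries. At 5 days it had 6.57, 7.24, 6.07 and 4.98 CPM in Dnmt3a2 libraries, against 7.28, 6.51, 4.40 and 5.03 CPM in Control libraries. The groups were interleaved at both days. The log2 difference was -0.07 at 1 day (SE 0.16, edgeR adjusted p = 0.971) and 0.10 at 5 days (SE 0.16, edgeR adjusted p = 0.951), with 95% intervals of 0.753 to 1.20-fold at 1 day and 0.85 to 1.35-fold at 5 days. An antisense gene without counts, Gm42604, overlaps an exon of Fras1.

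Frem2 (ENSMUSG00000037016, chromosome 3, 53513938 to 53657355, minus strand) encodes the other transmembrane member of the embryonic complex. At 1 day it had 1.96, 1.67, 1.58 and 1.35 CPM in Dnmt3a2 libraries, against 1.78, 1.72, 1.75 and 1.80 CPM in Control libraries. At 5 days it had 1.42, 1.97, 2.5 and 1.61 CPM in Dnmt3a2 libraries, against 1.70, 1.56, 2.04 and 1.84 CPM in Control libraries. The Dnmt3a2 libraries spread around the Control libraries at both days, and the Control libraries at 1 day lay between 1.72 and 1.80 CPM. Its 95% intervals were 0.706 to 1.23-fold at 1 day and 0.80 to 1.38-fold at 5 days (edgeR adjusted p = 0.955 and 0.968).

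Frem1 (ENSMUSG00000059049, chromosome 4, 82897920 to 83052339, minus strand) encodes a secreted member without a membrane anchor. At 1 day it had 1.17, 1.11, 0.689 and 0.971 CPM in Dnmt3a2 libraries, against 1.02, 0.91, 0.893 and 0.971 CPM in Control libraries. At 5 days it had 1.82, 1.22, 0.834 and 0.975 CPM in Dnmt3a2 libraries, against 1.17, 1.26, 1.37 and 0.866 CPM in Control libraries. Its highest value of all 16 libraries was in the choroid-rich replicate 1 of Dnmt3a2 at 5 days, the same library in which Frem3 was lowest among its group, and the part of choroid plexus in it was not tested. The 95% intervals were 0.713 to 1.51-fold at 1 day and 0.72 to 1.49-fold at 5 days (edgeR adjusted p = 0.987 and 0.985). Without the choroid-rich libraries the log2 difference turned to -0.04 at 1 day and -0.21 at 5 days, neither of them called.

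Grip1 (ENSMUSG00000034813, chromosome 10, 119453830 to 120087261, plus strand) had 13.4, 16.3, 15.0 and 12.5 CPM in Dnmt3a2 libraries at 1 day, against 16.6, 14.4, 15.5 and 13.7 CPM in Control libraries. At 5 days it had 16.2, 18.1, 16.8 and 17.4 CPM in Dnmt3a2 libraries, against 19.3, 18.9, 14.6 and 15.8 CPM in Control libraries. All 4 Dnmt3a2 libraries at 5 days lay inside the Control range. Its 95% intervals were the tightest of the 6 genes together with those of Grip2: 0.825 to 1.09-fold at 1 day and 0.869 to 1.15-fold at 5 days (edgeR adjusted p = 0.925 and 0.997). The helicase gene Helb (2.94 CPM) overlaps the end of Grip1 on the opposite strand without sharing exon sequence.

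Grip2 (ENSMUSG00000030098, chromosome 6, 91761509 to 91827250, minus strand) had 9.65, 12, 11.6 and 11.3 CPM in Dnmt3a2 libraries at 1 day, against 13.2, 12, 11.3 and 10.6 CPM in Control libraries. At 5 days it had 11, 10.5, 13.8 and 11.2 CPM in Dnmt3a2 libraries, against 11.8, 12, 10.9 and 10.7 CPM in Control libraries. The groups overlapped at both days. The 95% intervals were 0.82 to 1.09-fold at 1 day and 0.89 to 1.18-fold at 5 days (edgeR adjusted p = 0.913 and 0.969).

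Of the 6 genes, then, 0 were called at 1 day with edgeR, where 0.0888% of all genes were called, and 1 had an unadjusted p under 0.05, where 7.17% of all genes did. DESeq2 called 1 of the 6, Frem3, but it called 65 of all genes at 1 day, where edgeR called 15. At 5 days Frem3 is left out of the count because this contrast chose it. There 0 of the other 5 genes were called by edgeR or DESeq2, and none of the 5 had an unadjusted p under 0.05. Of all genes, edgeR called 54 (0.32%) and DESeq2 143 at 5 days. The 95% intervals of these 5 genes ran from 0.706-fold to 1.51-fold over both days, and those of the 2 scaffolds from 0.82-fold to 1.18-fold.

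**Figure D2:**
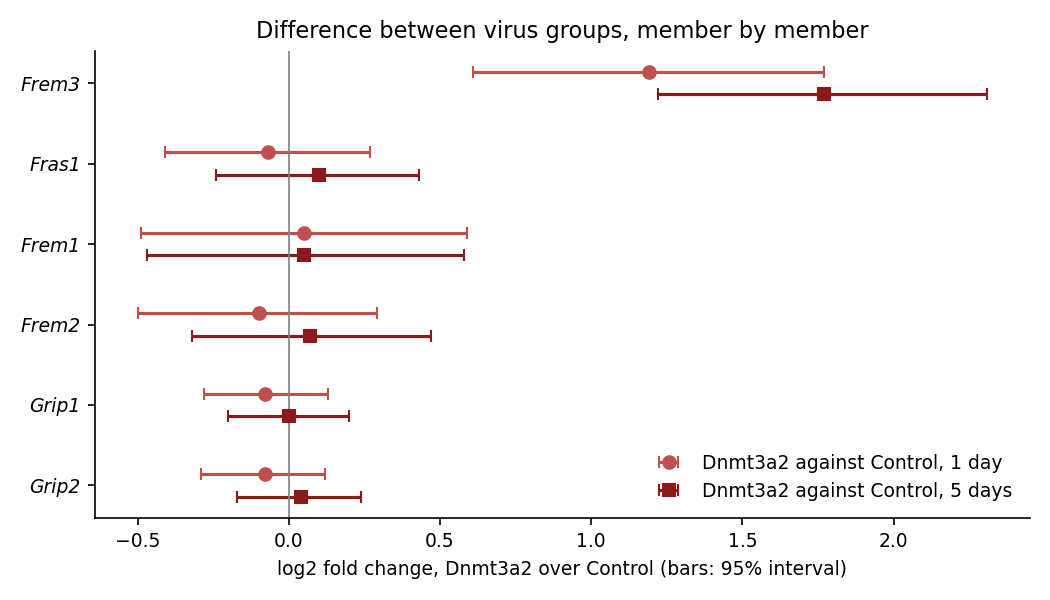
Log2 fold change of each gene, Dnmt3a2 over Control (horizontal axis), at 1 day (circles) and 5 days (squares), with 95% intervals from the fit over all 16 libraries. Frem3 lies at 1.19 at 1 day and at 1.77 at 5 days, the contrast that chose it, and the intervals of the other 5 genes all include 0. The interval of Frem3 at 5 days is drawn as a description and is no test, because the gene was picked for that difference.

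Between days, edgeR called 0 of the 5 genes other than Frem3 and 0 of all 16899 genes (0%) in either virus group, with 1822 genes (10.8%) at an unadjusted p under 0.05 in Dnmt3a2 and 598 (3.54%) in Control. DESeq2 called 48 genes in Dnmt3a2 and 0 in Control. Among the 5 genes other than Frem3, Grip1 had the smallest p in Dnmt3a2 hippocampus, with 17.1 ± 0.813 CPM at 5 days and 14.3 ± 1.70 CPM at 1 day (SD, n = 4 each, log2 difference 0.26, SE 0.10, edgeR adjusted p = 0.366). In Control hippocampus Grip1 had 17.2 ± 2.31 CPM at 5 days and 15.1 ± 1.27 CPM at 1 day (log2 difference 0.19, SE 0.10, edgeR adjusted p = 0.999). Fras1 in Dnmt3a2 hippocampus had 6.22 ± 0.954 CPM at 5 days and 4.98 ± 0.719 CPM at 1 day (log2 difference 0.32, SE 0.16, edgeR adjusted p = 0.489). For the test of whether the Dnmt3a2 effect differed between days, edgeR called 0 genes (0%), 360 (2.13%) had an unadjusted p under 0.05 and DESeq2 called 1. In that test the 5 genes other than Frem3 had differences of 0.00 to 0.18 on the log2 scale, 5 days minus 1 day, all with an adjusted p of 1.

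To compare levels between genes, CPM were divided by the length of the longest annotated transcript, 6.38 kb for Frem3, 15.85 kb for Fras1, 12.35 kb for Frem2, 9.69 kb for Frem1, 5.45 kb for Grip1 and 5.52 kb for Grip2. Over the 16 libraries the scaffolds were the most abundant per length, Grip1 with 2.92 ± 0.356 and Grip2 with 2.08 ± 0.187 CPM per kb (SD, n = 16), with ranges of 2.3 to 3.54 and 1.75 to 2.51 CPM per kb that overlapped. The matrix genes followed at a lower level, Fras1 with 0.351 ± 0.0628, Frem3 with 0.301 ± 0.223, Frem2 with 0.143 ± 0.022 and Frem1 with 0.111 ± 0.0274 CPM per kb. The mean of Frem3 pools unlike groups, with 0.283 in Dnmt3a2 and 0.123 CPM per kb in Control at 1 day. At 5 days it was 0.619 in Dnmt3a2, the group that chose it, and 0.181 CPM per kb in Control. In Control at 1 day Frem2, with 0.143 CPM per kb, lay above Frem3. By the mean per length over the 16 libraries, Grip1 lay above 42.9% of the tested genes, Fras1 above 12.9%, Frem3 above 11.3% and Frem1 above 2.75%. The range of Frem3, 0.106 to 0.778 CPM per kb, covered those of Fras1 and Frem2 in whole, and those of Frem2 and Frem1 overlapped. The highest library of Frem3 was 7.37 times its lowest, while that ratio was 1.43 to 2.64 for the other 5 genes. That highest library, replicate 2 of Dnmt3a2 at 5 days, is among those that chose Frem3. The wider range of Frem3 is therefore a description that follows from the choice.

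Among the 4 matrix genes, per kb of the longest transcript, Frem3 made up 33.6 ± 6.51% of the summed level in Dnmt3a2 and 17.9 ± 2.73% in Control hippocampus at 1 day (SD, n = 4 each). At 5 days its share was 47.0 ± 12% in Dnmt3a2, the contrast that chose it, and 22.3 ± 2.04% in Control. In Control, Fras1 was the leading matrix gene in all 8 libraries, with 47.4 ± 4.90% at 1 day and 44.8 ± 6.25% at 5 days. Frem3 was the leading matrix gene in 1 of 4 Dnmt3a2 libraries at 1 day and in 3 of 4 at 5 days, all but the choroid-rich replicate 1. Per kb of coding sequence Frem3 led in 0 of 4 Dnmt3a2 libraries at 1 day and in 3 of 4 at 5 days, and it was the lowest of the 4 genes in all 4 Control libraries at 1 day. The transcript models differ in how much untranslated sequence they hold, so ranks between Fras1 and Frem3 at 1 day depend on the length used.

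**Figure D3:**
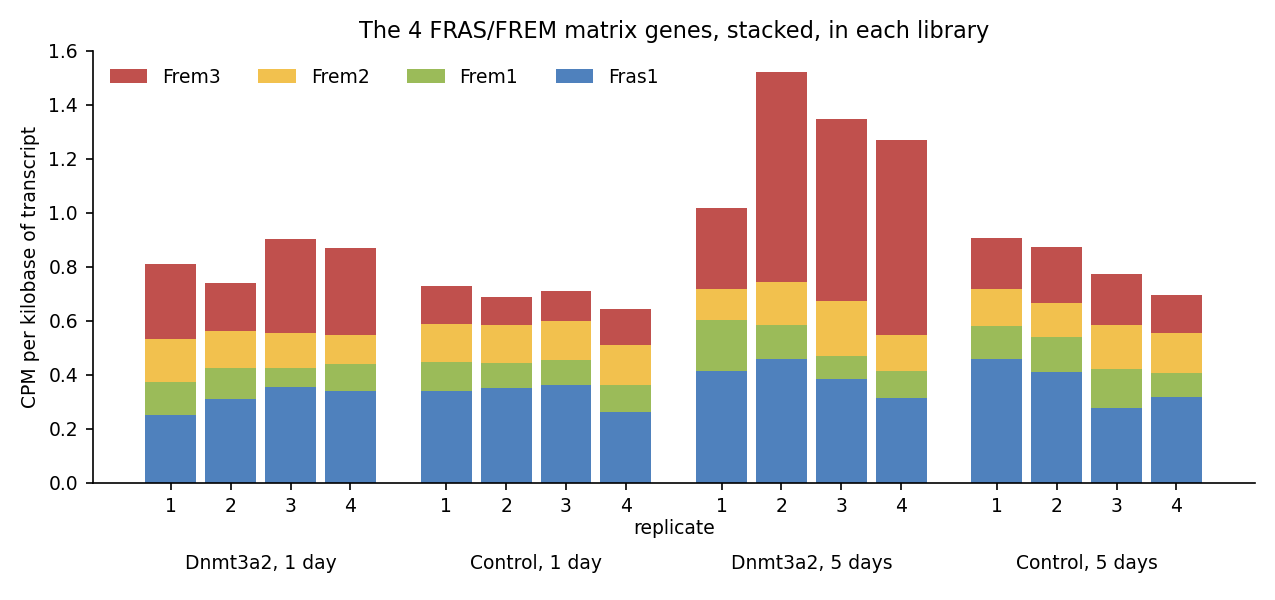
Stacked level of the 4 matrix genes in CPM per kilobase of the longest transcript (vertical axis) in each of the 16 libraries, grouped by virus and day. The Frem3 segment is the top part of each bar, with 47.0% of the sum on average in Dnmt3a2 and 22.3% in Control at 5 days. Fras1 ranges from 0.251 to 0.46, Frem2 from 0.109 to 0.203 and Frem1 from 0.0711 to 0.187 CPM per kilobase over the 16 libraries.

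The 16 libraries share their groups, library scaling and dissection, so correlations across them are given as descriptions. The pair with the highest Pearson correlation of log2 CPM was Fras1 and Grip1, whose products bind each other in embryonic epithelia, with r = 0.70 over the 16 libraries and r = 0.60 for deviations from the group means. Grip2 went the same way, with r for deviations of 0.45 with Grip1 and 0.41 with Fras1. Without Dnmt3a2_5d replicate 1 these 3 values were 0.64, 0.43 and 0.44 over 15 libraries. Frem3 had r = 0.27 with Fras1, 0.25 with Grip1, 0.17 with Frem2, 0.03 with Frem1 and -0.01 with Grip2 in log2 CPM. For deviations from the group means the lowest value of any pair was that of Frem3 and Frem1, at -0.50, and it was 0.00 without Dnmt3a2_5d replicate 1. None of these correlations was tested.

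Among 13116 genes that averaged 1 CPM or more and had an established symbol, the 6 with the pattern most like Frem3 over the 16 libraries were Nefm (r = 0.916), Bod1l (0.907), Pip4k2c (0.896), Fam19a1 (0.891), Plxnc1 (0.879) and Clint1 (0.878). The libraries of these genes share the virus groups that chose Frem3, so genes higher in Dnmt3a2 are favoured in this ranking. For deviations from the group means, which leave the groups out, r with Frem3 was 0.839 for Bod1l, 0.726 for Nefm, 0.54 for Plxnc1, 0.416 for Clint1, 0.358 for Pip4k2c and 0.07 for Fam19a1. The ranking used the same libraries, deviations included, so it favoured high values here as well and they are no separate check. Without Dnmt3a2_5d replicate 1, the library low in Frem3, 5 of these 6 values were lower. In this alternative, added after the data were seen, r for deviations over 15 libraries was 0.592 for Bod1l, 0.456 for Nefm, 0.154 for Clint1, 0.117 for Fam19a1, 0.066 for Plxnc1 and -0.081 for Pip4k2c. Nefm, the medium neurofilament subunit, averaged 132 ± 14.4 CPM in Dnmt3a2 and 110 ± 6.04 CPM in Control at 5 days, and 116 ± 9.55 CPM in Dnmt3a2 and 97.3 ± 4.74 CPM in Control at 1 day (SD, n = 4 each). Like Frem3, it had its lowest Dnmt3a2 value at 5 days in replicate 1, with 112 CPM against 132, 136 and 147 CPM in the others. Fam19a1, a secreted brain peptide, averaged 64.8 ± 1.11 CPM in Dnmt3a2 and 51.5 ± 0.847 CPM in Control at 5 days, and 56.8 ± 0.571 CPM in Dnmt3a2 and 49.8 ± 2.61 CPM in Control at 1 day. Plxnc1, a semaphorin receptor, averaged 31.5 ± 3.09 CPM in Dnmt3a2 and 24.4 ± 0.799 CPM in Control at 5 days. The changes of all 6 were smaller than that of Frem3, with log2 differences of 0.18 to 0.37 at 5 days. The 4 genes with the most opposite pattern were Arhgap15 (r = -0.879), a Rac GTPase-activating protein, Zfpm1 (-0.879), a cofactor of GATA factors, Lrrc10b (-0.870) and Prss36 (-0.869), a serine protease. Their r for deviations, favoured by the ranking in the same way, ran from -0.691 to -0.38 over 16 libraries. Without Dnmt3a2_5d replicate 1 it ran from -0.692 to -0.171. Arhgap15 averaged 7.89 ± 0.70 CPM in Dnmt3a2 and 10.7 ± 0.685 CPM in Control at 5 days.

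**Figure D4:**
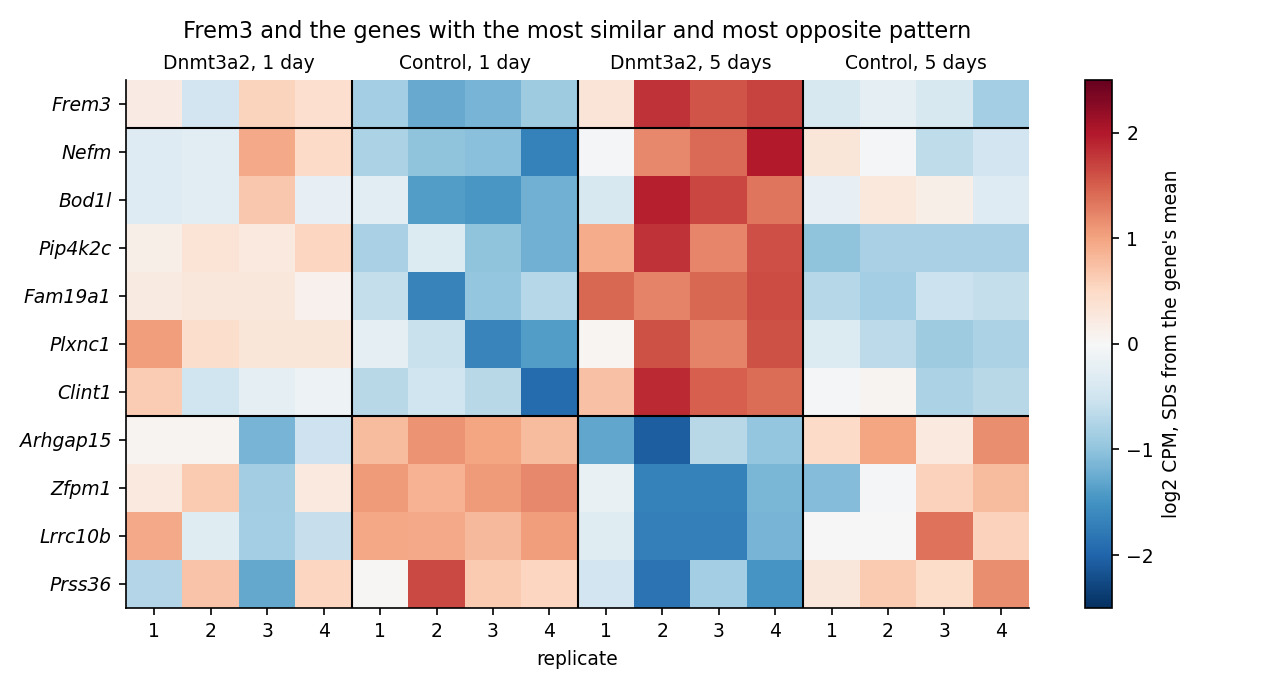
Log2 CPM of Frem3, the 6 genes most like it and the 4 most opposite, in SDs from each gene's mean over the 16 libraries (colour scale, red high and blue low), with 1 column a library grouped by virus and day. Frem3, Nefm and Bod1l are high in replicates 2 to 4 of Dnmt3a2 at 5 days and lower in replicate 1, while Fam19a1 is high in all 4.

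The genes around the family were taken from 4 lists of its binding partners, structural relatives and matrix neighbours. None of them was called at 1 day or at 5 days with edgeR, and the comparison is therefore given by counts and medians. Of the 5 partners of the FRAS complex, 4 could be tested, and Vwa2 had too few counts. Their median log2 difference, Dnmt3a2 minus Control, was 0.106 at 1 day and -0.067 at 5 days, against 0.003 and 0.008 over all genes. At 1 day 1 of the 4 had an unadjusted p under 0.05 (7.17% of all genes did) and 0 had groups that did not overlap (3.43%). At 5 days 2 of the 4 had such a p (8.01%), and the groups of 1, Itga8, did not overlap (6.28%). Itga8, the integrin subunit that binds the partner protein nephronectin, had 12.1 ± 1.83 CPM in Dnmt3a2 and 10.1 ± 0.628 CPM in Control at 5 days (edgeR adjusted p = 0.622), and nephronectin (Npnt), the member with the most counts, had 36.6 ± 2.09 CPM in Dnmt3a2 and 41.1 ± 3.88 CPM in Control (edgeR adjusted p = 0.598). Hmcn1, a large matrix protein of the fibulin group, had 0.945 ± 0.455 CPM in Dnmt3a2 and 1.21 ± 0.490 CPM in Control at 5 days.

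The 27 basement membrane genes, laminins, type IV collagens, nidogens, perlecan and others, had a median log2 difference of 0.031 at 1 day and 0.105 at 5 days, with 17 and 18 of 27 above 0. At 5 days 3 of the 27 had an unadjusted p under 0.05 (8.01% of all genes did) and 3 had groups that did not overlap (6.28% of all genes). Col4a2, a collagen chain, had 34.2 ± 1.54 CPM in Dnmt3a2 and 28.7 ± 2.24 CPM in Control (edgeR adjusted p = 0.329). Lamb3, a laminin chain of epithelia, had 1.22 ± 0.105 CPM in Dnmt3a2 and 1.69 ± 0.145 CPM in Control (edgeR adjusted p = 0.533). Sparc, a collagen-binding matrix protein and the member with the most counts, had 199 ± 6.97 CPM in Dnmt3a2 and 205 ± 3.39 CPM in Control at 5 days.

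The 6 relatives that carry Calx-beta domains or CSPG repeats are the sodium-calcium exchangers Slc8a1, Slc8a2 and Slc8a3, the adhesion receptor Adgrv1, the integrin chain Itgb4 and the proteoglycan Cspg4. Their median log2 difference was -0.029 at 1 day and 0.029 at 5 days, with 3 of 6 above 0 at each day. Slc8a2, the member with the most counts, had 699 ± 10.1 CPM in Dnmt3a2 and 657 ± 41.4 CPM in Control at 5 days (edgeR adjusted p = 0.785). Adgrv1 had 1.58 ± 0.551 CPM in Dnmt3a2 and 0.967 ± 0.131 CPM in Control at 1 day (edgeR adjusted p = 0.523), and 1.24 ± 0.353 CPM in Dnmt3a2 and 1.24 ± 0.232 CPM in Control at 5 days. Slc8a3 had 17.8 ± 1.62 CPM in Dnmt3a2 and 21.1 ± 1.34 CPM in Control at 5 days (edgeR adjusted p = 0.544).

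The 27 partners of the GRIP scaffolds cover AMPA and kainate receptor subunits, ephrins and Eph receptors, liprins, kinesin heavy chains and adaptors. Their median log2 difference was -0.001 at 1 day and 0.02 at 5 days. At 5 days 6 of 27 had an unadjusted p under 0.05 (8.01% of all genes did) and 4 had groups that did not overlap (6.28% of all genes). The smallest adjusted p was that of Ephb2, a synaptic receptor tyrosine kinase for ephrins, with 32.6 ± 1.73 CPM in Dnmt3a2 and 41.1 ± 3.66 CPM in Control at 5 days (log2 difference -0.34, SE 0.08, edgeR adjusted p = 0.0613). At 1 day Ephb2 had 34.8 ± 3.40 CPM in Dnmt3a2 and 40.2 ± 2.45 CPM in Control (edgeR adjusted p = 0.489). The liprins Ppfia2 and Ppfia4 lay on opposite sides at 5 days, Ppfia2 with 151 ± 6.24 CPM in Dnmt3a2 and 133 ± 4.92 CPM in Control, and Ppfia4 with 100 ± 2.04 CPM in Dnmt3a2 and 112 ± 7.96 CPM in Control (edgeR adjusted p = 0.213 and 0.339). The AMPA receptor subunit Gria2, the receptor partner for which the scaffolds are best known, had 537 ± 41.4 CPM in Dnmt3a2 and 511 ± 46.8 CPM in Control at 5 days (edgeR adjusted p = 0.884). Kif5a, a kinesin heavy chain and the member with the most counts, had 1520 ± 89.2 CPM in Dnmt3a2 and 1650 ± 75.5 CPM in Control at 5 days.

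**Figure D5:**
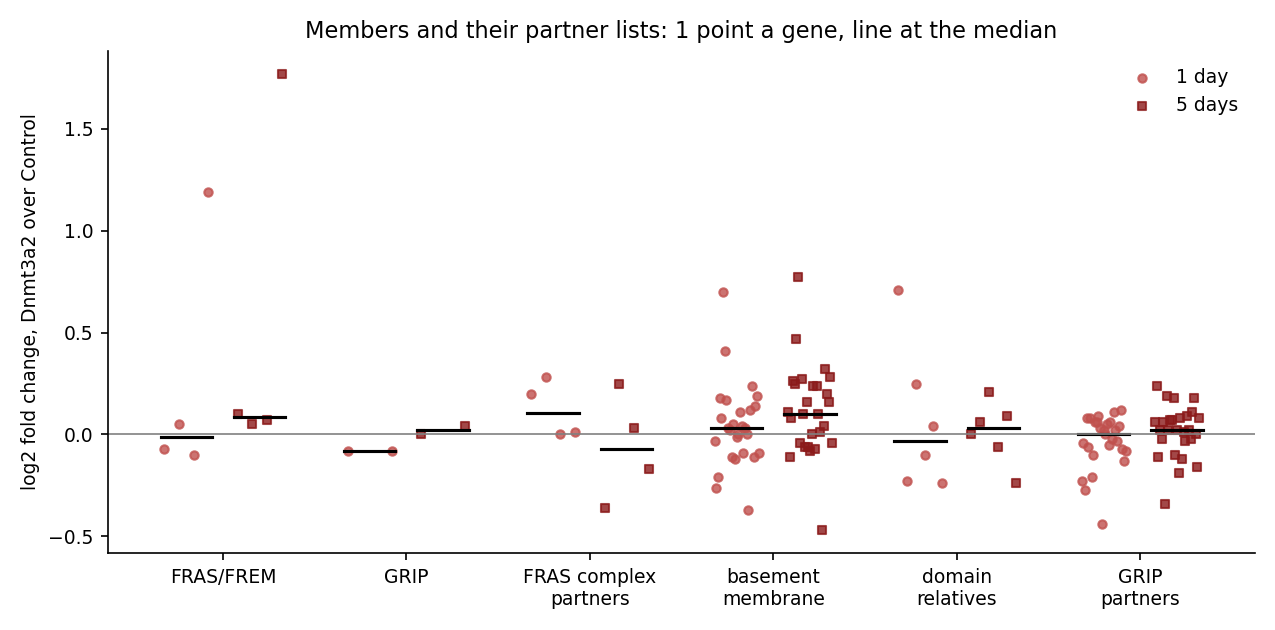
Log2 fold change, Dnmt3a2 over Control (vertical axis), of each tested gene in the 2 families and 4 lists, at 1 day (circles) and 5 days (squares), with a line at the median of each. The point at 1.19 and the square at 1.77 are Frem3, and the medians of the 4 lists lie between -0.067 and 0.106.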

How the data were processed

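Dorsal hippocampus RNA was sequenced on a BGISEQ-500 instrument in 16 libraries, 4 in each of 4 groups taken from the labels. Trim Galore 0.6.4, kallisto 0.4.6, edgeR 3.17 and build GRCm38.p6 are named in the submitters' processing notes. For their order, the annotation release and the strand of counting, the answer is not given in the sources read. The authors deposited each sample's estimated counts per Ensembl gene, which are not normalised and of which 26.2% are not whole, and its log2 CPM. The deposited log2 values differed from edgeR's log2 CPM of the counts by at most 5.33e-15, and served in 1 alternative. Kallisto divides reads between similar transcripts, so counts are estimates.

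Rounded counts that passed filterByExpr (by group) were scaled with TMM and fitted over all 16 libraries and 16899 genes with edgeR 4.0.16 (robust quasi-likelihood, 1 term per group, R 4.3.3). Calls were made over all genes where the p, adjusted after Benjamini and Hochberg, was under 0.05. Exact permutation was used for Frem3 at 1 day. Names and positions came from GENCODE M21 (55144 identifiers), promoter sequences from RefSeq. Library totals were 28.6 to 30 M estimated counts. No library pair agreed within sampling noise (chi-square per gene 4.43 to 44.0 over 120 pairs).

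The 6 genes and all 19 gene lists (184 symbols) were chosen with earlier results of these data known. Named were the 6 genes, the 6 genes with the highest and 4 with the lowest correlation with Frem3, called list members and the list member with the most counts (printed for the 4 partner and relative lists). List members outside this rule (Itga8, Hmcn1, Col4a2, Lamb3, Adgrv1, Slc8a3, Ephb2, Ppfia2, Ppfia4 and Gria2) were named after their values were seen. In the comparisons of virus groups, the 13 cell type lists (dentate granule, CA1, CA3 and CA2, neocortex, interneuron, astrocyte, oligodendrocyte and its precursor, microglia, endothelial and mural, meningeal, choroid plexus, ependymal) had 1 call at 1 day and 2 at 5 days in dentate granule, 1 at 5 days in CA3 and CA2, and 0 elsewhere. The alternatives were DESeq2 1.42.0 and its size factors, limma-trend (limma 3.58.1), other filters, only the groups compared, the replicate block, an adjusted p under 0.10, each library left out and, added after the data were seen, no choroid-rich libraries, and correlations of deviations without Dnmt3a2_5d replicate 1.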

Additional observations from a re-analysis of the deposited data

Results flagged for a closer look

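Replicate 1 of Dnmt3a2 at 5 days lay far below the other 3 libraries of its group in Frem3, with 1.92 CPM against 4.97, 4.30 and 4.61 CPM. Its gap to the nearest library was 0.848 of the range of the group on the log2 CPM scale, above Dixon's 95% critical value for 4 samples. On the CPM scale the share was 0.782, below that value. Dixon's ratio was computed for 24 combinations of gene and group on each of 2 scales. Of these 48, 1 passed, where chance passes about 1 in 20. The library was also the richest in choroid plexus transcripts, whose part in its Frem3 value was not tested.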

How the results depend on the processing

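The edgeR call count at 1 day was 15, and became 65 with DESeq2, 34 without a filter on low counts, 7 with only the groups compared and 23 at an adjusted p under 0.10. With 1 library left out it ran from 6 (without Control_1d replicate 2) to 22 and was 7 without Dnmt3a2_1d replicate 3. At 5 days it was 54, and became 143 with DESeq2, 94 with only the groups compared, 90 without the 2 choroid-rich libraries and 104 at an adjusted p under 0.10. With 1 library left out it ran from 22 (without Dnmt3a2_5d replicate 4) to 82 (without Control_1d replicate 3), with 33 without Dnmt3a2_5d replicate 3 and 29, 30 and 26 without Control_5d replicates 1, 3 and 4. Between days in Dnmt3a2 it was 0, and became 48 with DESeq2, 6 without a filter and 0 to 1 with a library left out. For the difference of effects between days DESeq2 called 1. The cause of these shifts was not tested. Of the 6 genes, 0 were called at 1 day, against 1, Frem3, with DESeq2, without a filter and without the choroid-rich libraries, and 0 to 1 with a library left out. Its log2 difference there was 1.20, 1.19 and 1.20, and 1.07 to 1.36 with a library left out (adjusted p 0.0245 to 0.406, called only without Dnmt3a2_5d replicate 1). Between days in Dnmt3a2 the count over the 6 genes was 0, against 1 with DESeq2 and 1 without a filter, and 0 to 1 with a library left out. That gene is Frem3, whose 5 day libraries chose it, so this count is no test of it. The 5 genes other than Frem3 gave 20 results, 1 for each gene and comparison, and none changed its call in any of 24 alternatives (smallest adjusted p 0.183). Of these 480 values, 22 turned the sign of a log2 difference near 0. Without the choroid-rich libraries these were Fras1 at 1 day (0.02), Frem1 at 1 day (-0.04) and 5 days (-0.21) and Grip1 at 5 days (0.02), and with limma-trend Grip1 at 5 days (0.01). With a library left out the ranges were, at 1 day, -0.16 to 0.02 for Fras1 and -0.04 to 0.19 for Frem1. At 5 days they were -0.01 to 0.23 for Fras1, -0.21 to 0.19 for Frem1, -0.10 to 0.19 for Frem2, -0.07 to 0.06 for Grip1 and -0.06 to 0.08 for Grip2. Between days they were -0.03 to 0.11 for Grip2 in Dnmt3a2, and -0.05 to 0.08 for Frem2 and -0.11 to 0.00 for Grip2 in Control.

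Whether replicate numbers pair the libraries was not settled. Over 24 pairs of equal number the correlation of deviations from group means ran from -0.086 to 0.38, with a median of 0.022, and 8 were over 0.1. Pairs of unequal number were not computed beside them, so pairing can be neither shown nor excluded this way. With the replicate block 17 genes were called at 1 day and 65 at 5 days, Frem3 at 1 day had a log2 difference of 1.18 (edgeR adjusted p = 0.175) and Grip1 at 5 days turned to 0.00. The likeness of all 10 named genes to Frem3 was lower in size for deviations from group means, and that of Pip4k2c turned to -0.081 when Dnmt3a2_5d replicate 1 was also left out. At 20 to 27 counts of Frem3 in a Control library at 1 day, depth limits how closely its level there is known.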
